A study of Mus musculus with 6 samples.

Results

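The genes described here rose after 2 h in high potassium and had fallen back by 6 h, and they lie outside the best known families of immediate-early genes. They were selected on measured values: a mean expected count of at least 100 in the 2 h libraries, a mean TPM (transcripts scaled to a fixed library total, a level corrected for transcript length) at 2 h of at least 2 times the 0 h mean, and a mean TPM at 6 h of at most 0.5 times the 2 h mean. Of the 43432 genes listed, 10894 had the count, 45 met all 3 conditions, and 35 remained after symbols beginning with Fos, Jun, Egr, Nr4a, Klf, Ier, Gadd45, Dusp or Zfp were set aside. Those 10 set-aside genes were Fosb, Junb, Egr1, Egr2, Nr4a1, Nr4a2, Klf4, Ier2, Gadd45b and Gadd45g.

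The cells were primary cortical neurons of wild-type C57BL/6 mouse embryos, both sexes pooled, taken at E16.5 and kept in culture for 7 days. All cultures, including the 0 h controls, had been silenced overnight with 1 μM tetrodotoxin, a blocker of sodium channels, and 100 μM DL-AP5, a blocker of NMDA receptors. KCl was then added at 55 mM, and poly(A) RNA was taken after 0 h, 2 h or 6 h, as 2 libraries per time with 25959298 to 28573067 expected counts per library. The study calls the 2 libraries of a time biological replicates, but the sources used here do not say whether they came from separate cultures or dissections, so the p-values below measure only the spread between these libraries.

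High potassium depolarizes the membrane, opens voltage-gated calcium channels and so drives kinases and phosphatases that act on transcription factors already present in the nucleus, such as CREB, SRF and MEF2. Genes of the first wave need no new protein for their transcription, are often short, and many of their transcripts are unstable. Their products include transcription factors but also enzymes, secreted proteins and regulators of signalling, which act on the second wave of genes and on the synapse.

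All 18 neuron markers, all 10 astrocyte and radial glia markers and all 11 markers of dividing cells were detected. The summed TPM of the neuron markers was 6800 to 6950 at 0 h, 6430 to 6740 at 2 h, then 6800 to 6930 at 6 h. Single neuron markers moved within that sum: from 0 h to 6 h, Tubb3 was called lower, at −1.01 on the log2 scale, and Gad1, Gad2 and Nefl were called higher, at 1.42, 1.36 and 1.52. The astrocyte and radial glia markers summed to 4700 to 4780, 3820 to 4370 and 3320 to 3500 TPM, with Fabp7 alone at 3861 and 3869 TPM at 0 h, and those of dividing cells to 301 to 312, 294 to 324 and 243 to 261 TPM. Oligodendrocyte markers stood at 119 to 184 TPM over the 6 libraries, vascular markers at 14.4 to 21.2 and microglial markers at 4.83 to 11.2. The study's immunostaining showed mostly Tuj1 and little GFAP, which it took as high neuronal purity. The sums above show transcripts of glial and dividing-cell markers beside those of neurons in bulk RNA, but give no count of cells. In such bulk samples a change in the number of cells of a type and a change in RNA per cell cannot be told apart.

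The upstream 250 bases of 4 members are shown, chosen because they hold a match to short elements known from activity-dependent promoters: TGACG on either strand, the core of the cAMP response element TGACGTCA bound by CREB, and TGACTCA or TGAGTCA, the AP-1 site bound by Fos and Jun proteins. The sequences are from RefSeq, build GRCm38.p6, and run 5′ to 3′ up to the base before the RefSeq start of transcription, with matches in capitals. GENCODE M21 places the outermost start of some of these genes elsewhere: at base 4990316 for Npas4, 97766556 for Cwc25 and 52038009 for Tnfaip6. By that annotation the Npas4 window lies inside the gene, as does the end of the Tnfaip6 window.
Npas4 (chr19:4989972-4990221, minus strand): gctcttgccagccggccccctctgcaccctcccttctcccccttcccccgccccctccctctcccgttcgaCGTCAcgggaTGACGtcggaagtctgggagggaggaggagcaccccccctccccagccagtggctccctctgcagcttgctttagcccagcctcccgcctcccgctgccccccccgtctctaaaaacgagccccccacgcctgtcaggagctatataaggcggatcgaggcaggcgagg
Cwc25 (chr11:97766614-97766863, minus strand): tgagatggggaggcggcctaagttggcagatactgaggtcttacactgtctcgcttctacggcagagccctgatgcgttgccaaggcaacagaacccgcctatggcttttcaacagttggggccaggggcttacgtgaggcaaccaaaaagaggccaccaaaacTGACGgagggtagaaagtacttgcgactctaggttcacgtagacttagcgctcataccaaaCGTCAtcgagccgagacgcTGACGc
Jmy (chr13:93499809-93500058, minus strand): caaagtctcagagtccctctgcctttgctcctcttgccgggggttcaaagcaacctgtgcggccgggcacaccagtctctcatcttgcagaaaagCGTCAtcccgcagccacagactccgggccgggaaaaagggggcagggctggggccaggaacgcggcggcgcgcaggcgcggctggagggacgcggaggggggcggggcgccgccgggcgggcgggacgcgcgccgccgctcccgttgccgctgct
Tnfaip6 (chr2:52037863-52038112, plus strand): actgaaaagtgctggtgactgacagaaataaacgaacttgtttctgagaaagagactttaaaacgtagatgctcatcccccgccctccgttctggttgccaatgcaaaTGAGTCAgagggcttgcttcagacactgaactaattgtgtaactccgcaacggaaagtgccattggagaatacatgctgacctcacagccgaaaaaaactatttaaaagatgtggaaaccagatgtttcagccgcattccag

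Npas4 held 2 TGACG elements on opposite strands, beginning 179 and 169 bases before the RefSeq start, from which all positions here are counted. Cwc25 held 3, at 86, 25 and 6 bases, and Jmy held 1 at 155 bases. The AP-1 match of Tnfaip6 began 142 bases before the RefSeq start. Over windows of 300 bases, from 250 before to 50 after the start, 22 of the 35 members had a promoter in the RefSeq table, and 14 of them (63.6%) held TGACG, against 37.4% of the 8438 promoters of genes that passed the count minimum and 23.0% of all 27025 genes in the table. Of the 8 set-aside genes with a promoter, 6 held it. The full TGACGTCA, which contains TGACG on both strands, was in the promoter of 1 member, Slc38a6 (4.55% of members, 3.99% of the 8438). An AP-1 match was in 1 member (3.92% of the 8438) and TATAAA was in 1, Frat2 (8.22% of the 8438). These matches are a description of letters in a window and not of binding.

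The 7 members with roles in transcription and chromatin were Npas4, Jmy, Rfx4, Sap30, Spty2d1, Dlx5 and Jade2. Npas4 (chr19:4984355-4990316, minus strand, GRCm38) is a neuron-specific transcription factor of the bHLH-PAS family that couples calcium entry to the formation of inhibitory synapses. Its TPM was 1.11 and 0.91 at 0 h, 155.8 and 201.2 at 2 h, then 81.2 and 76.6 at 6 h. The 3 times did not overlap, and the 6 h libraries stood 78.1 times above 0 h on average. Its normalised read count was 42.5 ± 6.45 at 0 h, 8473 ± 1424 at 2 h, then 3757 ± 201.8 at 6 h (SD, n = 2).

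Spty2d1, the histone chaperone SPT2, was at 5.35 and 5.53 TPM at 0 h, 28.1 and 26.3 at 2 h, then 12.1 and 10.4 at 6 h. Jade2, a subunit of a histone acetyltransferase complex, was at 1.06 and 1.25, then 4.11 and 5.26, then 0.82 and 0.79 TPM. Spty2d1 therefore stayed above its 0 h level at 6 h in both libraries, while Jade2 lay below it in both. Jmy, a transcriptional cofactor that also nucleates actin filaments, rose from 15.1 to 15.6 TPM at 0 h to 39.2 to 47.8 at 2 h. Rfx4, a transcription factor of neural progenitors and glia, was at 11.1 and 13.5 TPM at 0 h, 32.0 and 29.8 at 2 h, then 13.0 and 15.0 at 6 h, and the summed level of the astrocyte and radial glia markers fell over the same times as given above, a fall whose part in the result was not tested. Sap30, of the Sin3 histone deacetylase complex, and Dlx5, a homeobox factor of inhibitory neurons, had 2 h over 0 h ratios of 2.17 and 2.73, and their 6 h libraries were at 48.8% and 44.7% of the 2 h mean.

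Among the 3 members placed with RNA processing, Cwc25 (chr11:97745481-97766556, minus strand), a spliceosome component, was at 14.0 and 15.8 TPM at 0 h, 109 and 122 at 2 h, then 22.5 and 22.4 at 6 h. Pcf11, a subunit of the complex that cleaves and polyadenylates pre-mRNA and ends transcription, was at 21.1 and 19.3, then 67.3 and 49.98, then 14.2 and 10.7 TPM. Cwc25 returned to 19.5% of its 2 h mean and Pcf11 to 21.2%, and both 6 h libraries of Pcf11 lay below both of its 0 h libraries. The exons of Pcf11 overlap those of 6430511E19Rik on the other strand. Trmt61b, whose symbol names a tRNA methyltransferase, is annotated in this release as an antisense transcript that overlaps Spdya. Its count was not a whole number in any of the 6 libraries, and its TPM was 9.59 and 10.9 at 0 h, 40.1 and 31.8 at 2 h, then 14.9 and 8.78 at 6 h, so that the 0 h and 6 h libraries overlapped.

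The signalling and protein modification group held Tiparp, Siah2, Irs2, Gpr180 and Frat2. Tiparp (chr3:65528410-65555518, plus strand), a mono-ADP-ribosyltransferase whose exons overlap 4931440P22Rik on the other strand, was at 21.8 and 20.8 TPM at 0 h, 120 and 94.9 at 2 h, then 47.0 and 43.4 at 6 h. Siah2, a RING-type E3 ubiquitin ligase, was at 16.48 and 18.71, then 79.2 and 76.6, then 25.19 and 25.01 TPM. Both showed no overlap between any of the times. Irs2, an adaptor of insulin and IGF receptors, was at 7.48 and 9.10 TPM at 0 h, 17.3 and 23.3 at 2 h, then 8.86 and 10.98 at 6 h, with the 0 h and 6 h libraries overlapping. Gpr180 was at 9.62 and 9.78 TPM at 0 h and 9.51 and 9.91 at 6 h, with 19.35 and 20.95 between. Frat2, an inhibitor of the kinase GSK-3 that acts in Wnt signalling, was chosen for naming after its values were seen, to account for every member. Its 2 h mean was 2.71 times the 0 h mean and its 6 h mean was 44.4% of the 2 h mean.

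The metabolic members with their own reads were Gla, Ucp1, Pygm and A3galt2. Gla, the lysosomal alpha-galactosidase, was at 7.87 and 8.19 TPM at 0 h, 44.5 and 47.6 at 2 h, then 19.2 and 19.2 at 6 h. Ucp1, the mitochondrial uncoupling protein known from brown fat, was near the floor at 0 h, with 2 counts in each library, and had 195 and 132 counts at 2 h, then 69 and 45 at 6 h. Its counts per library size at 2 h were 96.1 times those at 0 h, with an exact 95% interval of 37.2 to 355 that covers counting error only. A3galt2, a galactosyltransferase of glycolipid synthesis, was at 0.45 and 0.39, then 3.10 and 3.21, then 1.16 and 1.80 TPM. Pygm, the muscle form of glycogen phosphorylase, lay closest to the limits, with a 2 h over 0 h ratio of 2.05 and a 6 h level of 49.8% of that at 2 h. Fmo1, a flavin-containing monooxygenase, was at 22.7 and 20.1 TPM at 0 h, 49.9 and 54.7 at 2 h, then 22.8 and 20.1 at 6 h. Fmo1 shares 303 bases at 98.0% identity with Gm37758, which rose from 21.5 to 93.4 mean TPM at 2 h, and 524 bases at 96.8% with Klf12, so its count is uncertain.

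Of the genes of the membrane, matrix and trafficking group, Tnfaip6, a secreted protein that binds hyaluronan, was at 2.22 and 3 TPM at 0 h, 18.2 and 16.2 at 2 h, then 8.21 and 7.17 at 6 h. Vps37b, a subunit of the ESCRT-I complex of endosomal sorting, was at 10.2 and 11.2, then 39.9 and 59.0, then 13.9 and 15.0 TPM. Vps37b had non-whole counts in every library, and 918 bases of its transcript overlap Hip1r on the other strand. Lrrn4cl was at 0.63 and 0.95 TPM at 0 h, 3.51 and 3.38 at 2 h, then 1.34 and 0.74 at 6 h, so its 0 h and 6 h libraries overlapped. The 2 members linked to cell division were Cenpl, a centromere protein, and Ccno, an atypical cyclin of multiciliated cells. Cenpl was at 6.09 and 5.19 TPM, then 11.4 and 12.3, then 4.61 and 4.43. Ccno had 4 and 2 counts at 0 h, 91 and 115 at 2 h, then 15 and 11 at 6 h, so that its 2 h level was 40.3 times that at 0 h (exact 95% interval 18.2 to 111, counting error only).

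**Figure D1:**
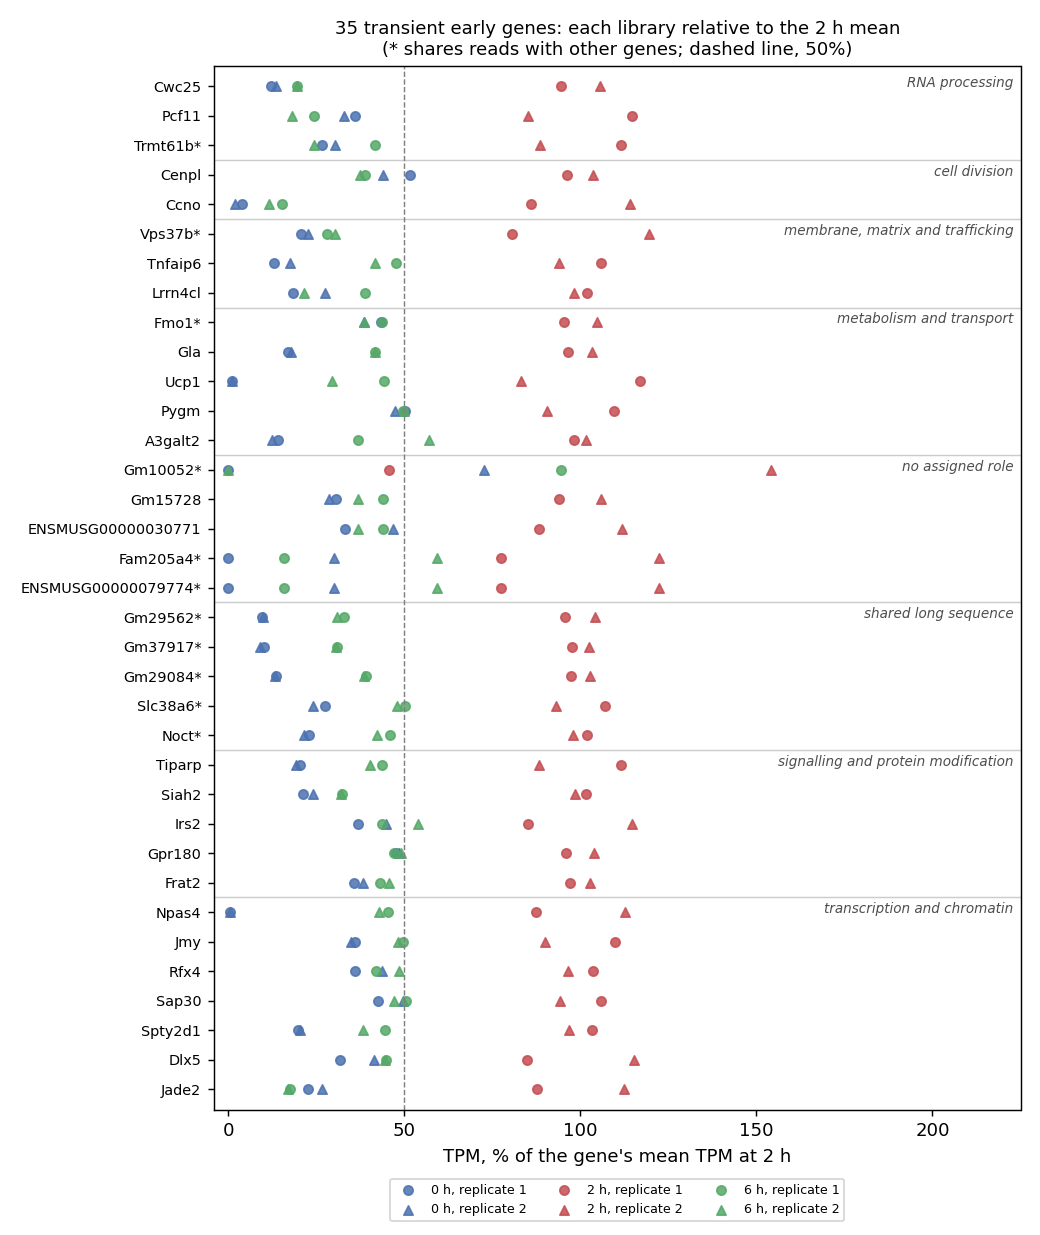
TPM of the 35 members in each of the 6 libraries, as a percentage of the gene's own mean TPM at 2 h (x axis), with 1 row per gene and grouped by role. Blue, red and green points are 0 h, 2 h and 6 h, circles and triangles are replicates 1 and 2, and asterisks mark the 11 members that share reads. The lowest 2 h library lies above both 0 h libraries in 34 members, all but Gm10052, a count shaped by the selection on the rise.

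Because the selection used both contrasts, the counts of calls between 2 h and its neighbours are a description. A call needed an adjusted p of 0.05 or less in DESeq2's Wald test and a fold above 2. On the rise from 0 h to 2 h, 32 of the 35 members were called, where 3.62% of the 16840 genes tested were. On the fall from 2 h to 6 h, 31 members were called, where 8.02% of 16404 genes were. The ratio of 2 h over 0 h ran from 2.05 in Pygm to 177 in Npas4, with a median of 4.36. It was under 3 in 13 members, between 3 and 5 in 9, between 5 and 11 in 10 and above that in 3, Npas4, Ucp1 and Ccno. The 6 h level was between 13.4% and 49.8% of the 2 h level, with a median of 41.1%, and 20 members kept over 40%. The 3 lowest were Ccno at 13.4%, Jade2 at 17.2% and Cwc25 at 19.5%.

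Several members lay close to a limit. The lowest mean counts at 2 h were 103 in Ccno, 111.5 in Pygm and 117.4 in ENSMUSG00000079774, and among genes that met the other conditions the nearest below 100 were Slc2a2 with 89.5, Fbxl22 with 87.7 and Cdiptos with 87.5. For the rise, the members nearest the limit were Pygm at 2.05, Gpr180 at 2.08 and Cenpl at 2.10, and the nearest outside among genes that met the other conditions were Dlx2 at 1.95, Inha at 1.76 and Vwa5b2 at 1.75. For the fall, Pygm at 49.8%, Slc38a6 at 49.1% and Jmy at 48.9% were the last inside, and Gm37758 at 50.03%, Plcg2 at 50.4% and Mroh2a at 50.6% the first outside among genes that met the other conditions. Dlx2, a homeobox gene of inhibitory neurons like the member Dlx5, thus missed the list on its rise alone.

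The 5 members with the highest TPM at 2 h were tied by shared sequence: 4 of them aligned to different or overlapping stretches of the fifth, Noct, and no stretch was common to all 5. They were Gm29562, Gm37917 and Gm29084, which are annotated without a protein, Slc38a6, of a family of amino acid transporters, and Noct, nocturnin, a phosphatase under circadian control. The longest transcript of Noct, of 9797 bases, aligned to Slc38a6 over 3243 bases at 98.5% identity on the opposite strand, to Gm29084 over 1452 bases at 99.7%, to Gm29562 over 855 bases at 95.2% and to Gm37917 over 392 bases at 98.0%, the last 3 on the same strand.

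The long transcript begins with an exon of 7869 bases (GRCm38, chromosome 3, 51240206 to 51248074), which lies in the first intron of the 3059-base transcript of Noct, and its alignments with the other 4 genes fall within that exon. The effective length assigned to Noct was 9397 to 9472 bases in the 6 libraries, close to that of the long transcript, so RSEM assigned most of the abundance to it. In Slc38a6 the shared sequence lies in an exon of 3531 bases of its 3927-base transcript (chromosome 12, 73310990 to 73314520). Noct aligned over at least 200 bases at 95% identity to 39 other genes, 12 of which, the other 4 members included, passed the count minimum, and not all of these followed the members: D10Wsu102e, aligned over 3497 bases on the opposite strand, had a mean TPM of 22.6 at 0 h, 13.2 at 2 h and then 40.2.

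The values of the 5 genes moved in parallel. Noct was at 51.7 and 48.2 TPM at 0 h, 230 and 221 at 2 h, then 104 and 95.1 at 6 h, and Slc38a6 was at 93.1 and 81.9, then 362 and 316, then 171 and 162. Gm29562 was at 65.8 and 68.9, then 665 and 724, then 228 and 215 TPM. Gm29084 went from 67.3 to 68.8 TPM at 0 h to 497 to 524 at 2 h, and Gm37917 from 51.0 to 57.3 to 547 to 573. The high TPM of Gm37917 rests on its short effective length, 74.38 and 79.29 bases in the 2 h libraries. Its mean 2 h count was 679.3, against 8323.5 in Npas4, which had a lower TPM. The summed expected counts of the 5 were 14939 and 14438 at 0 h, 72555 and 66079 at 2 h, then 29755 and 27204 at 6 h, a sum that does not depend on how reads were divided among these 5. How much of it came from any of these loci cannot be told from counts per gene, and the sources do not say whether RSEM used the strand of the reads.

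**Figure D2:**
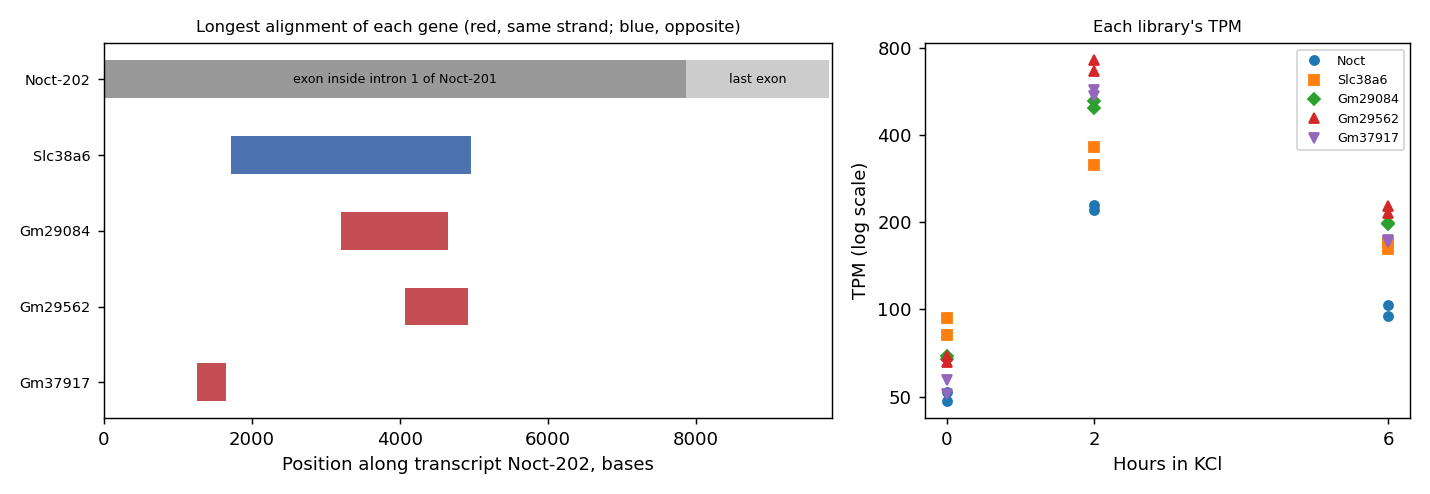
Left, position along the long transcript of Noct in bases (x axis) of its own exons (grey) and of the longest stretch of at least 95% identity with each of the other 4 members, on the same (red) or the opposite (blue) strand. Right, TPM of the 5 genes in every library on a log scale against hours in KCl, where each gene is highest in both 2 h libraries.

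In total 11 members (31.4%) had a non-whole count in at least 1 library and so shared reads, against 18.1% of all genes that passed the count minimum. Fam205a4 and ENSMUSG00000079774 had identical values, 0 and 0.59 TPM at 0 h, 1.52 and 2.40 at 2 h, then 0.31 and 1.16 at 6 h. Fam205a4 is identical over 3927 bases to Fam205a2 and Fam205a3, and over these 4 copies summed, a step chosen after seeing the data, the rise was 2.15 times but the 6 h level was 51.7% of that at 2 h, outside the limit. Gm10052 is a processed pseudogene whose 960 bases are identical to Hnrnpa1, a splicing regulator. It was listed at 0 and 9.90 TPM at 0 h, 6.24 and 21.02 at 2 h, then 12.9 and 0 at 6 h, and with Hnrnpa1 added, the 2 h mean was 1.10 times the 0 h mean, with 72.7% of that left at 6 h. Of the other genes with no assigned role, Gm15728, a long noncoding RNA with whole counts, was at 3.30 and 3.07, then 10.1 and 11.4, then 4.74 and 3.97 TPM. ENSMUSG00000030771, which has neither a symbol nor a position in the tables used, was at 1.79 and 2.53, then 4.76 and 6.04, then 2.38 and 1.99 TPM.

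The difference between 6 h and 0 h asks whether the members had returned to their starting level. The selection used the same 0 h and 6 h libraries and shaped this comparison: a mean TPM at 6 h under 0.5 of that at 0 h required a 6 h level under 25% of that at 2 h, which 4 members had. The counts are therefore a description, and nothing is read from their distance to the share over all genes. By the DESeq2 fit 14 of the 35 members were called higher at 6 h, where 9.10% of the 17277 genes tested were, and 0 were called lower, where 10.2% were. At an unadjusted p under 0.05, 22 members were higher and 1, Pcf11, was lower. The quasi-likelihood test of edgeR called 14 and 0, with 21 and 1 at an unadjusted p under 0.05. Shares over all genes are given for the main calls alone, so these counts, and those scaled by library totals, only describe the members. The members' median log2 fold change was 0.69, and that of all genes tested was 0.00. Scaled by library totals, which moved the median of all genes to −0.25, 10 members were called, without Gm15728, Slc38a6, Noct and Spty2d1.

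Npas4 had the largest difference, 6.47 ± 0.22 on the log2 scale (SE; DESeq2, adjusted p = 9.73e-192). Ucp1 followed with 5.14 ± 0.82 (adjusted p = 3.17e-09), and by counts its 6 h level was 35.4 times that at 0 h (exact 95% interval 13.4 to 132). Ccno was at 2.42 ± 0.78 (adjusted p = 0.00524), and its call was lost without replicate 2 at 0 h (1.98) or without replicate 1 at 6 h (2.18). A3galt2, Gm29562 and Tnfaip6 followed at 1.93, 1.88 and 1.73, with adjusted p-values of 4.28e-06, 3.98e-55 and 4.86e-10. The other 8 called members were Gm29084, Gm37917, Gla, Tiparp, Spty2d1, Noct, Slc38a6 and Gm15728, with log2 fold changes from 1.06 to 1.72. The call of Gm15728 was lost without replicate 1 at 0 h (0.98) or replicate 1 at 6 h (0.91). In mean TPM, the 6 h levels of Gm15728, Slc38a6 and Noct were 1.37, 1.90 and 1.99 times those at 0 h. These are under 2-fold, so their calls depended on the scale. All 5 genes of the shared sequence were among the 14, which leaves 9 called of the 24 members with whole counts in every library.

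A further 7 members had an adjusted p of at most 0.05 for a rise under 2-fold: Cwc25, Siah2, Jmy, Vps37b, Trmt61b, Frat2 and Rfx4, from 0.77 in Cwc25 to 0.37 in Rfx4. Pcf11 was the sole member past that p in the other direction, at −0.49 ± 0.21 (adjusted p = 0.0444). The other 13 members passed no threshold. Of these, Gm10052, Fam205a4 and ENSMUSG00000079774 had standard errors above 1, and the remaining 10 had log2 fold changes from −0.34 in Jade2 to 0.58 in Lrrn4cl. In TPM, the 6 h libraries lay above both 0 h libraries in 20 members, below both in 3 and overlapped them in 12. The share of all genes separated in this way is not given, so these counts are a description and nothing is read from them. The 3 below were Pcf11, Jade2 and Cenpl, but for Cenpl the fold change of counts was 0.05 ± 0.22, so its direction depended on the scale.

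**Figure D3:**
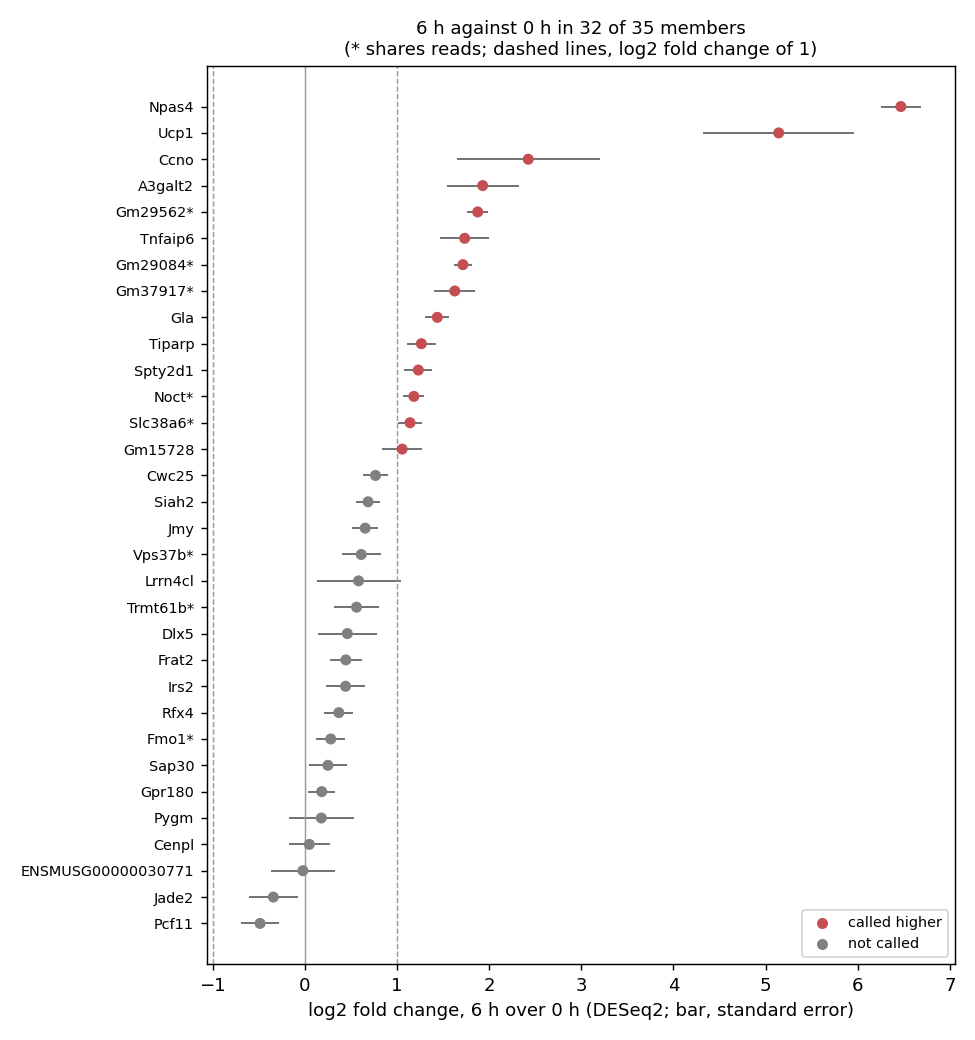
Log2 fold change of 6 h over 0 h from the DESeq2 fit (x axis) with its standard error as a bar, for the 32 members whose standard error was under 1; Gm10052, Fam205a4 and ENSMUSG00000079774 are not drawn. Red points are the 14 members called higher, grey points the rest, and the dashed lines mark log2 fold changes of 1 and −1.

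The effective length of a gene is an adjusted transcript length, averaged with weights by abundance, and is the divisor in TPM. It follows shifts between short and long transcripts, but not those alone. Gm37917, with 1 annotated transcript of 392 bases, had 90.2 and 78.54 bases at 0 h, then 70.48 and 74.43 at 6 h. Of the 26 members with enough counts, 0 were called in each comparison by limma's moderated test, where 0.0356% of 11233 genes were called between 2 h and 0 h, 0.116% between 6 h and 2 h and 0.525% between 6 h and 0 h. At an unadjusted p under 0.05 there were 2 members between 2 h and 0 h, Noct and Slc38a6, 0 between 6 h and 2 h, and 2 between 6 h and 0 h, Slc38a6 and Gm15728. A log2 ratio of at least 0.2 was reached between 6 h and 2 h by Cenpl (0.22) and Gm15728 (0.27), with adjusted p-values of 0.742 and 0.606. Between 6 h and 0 h it was reached in absolute value by Gm15728 (0.416) and Gm37917 (−0.217), with limma adjusted p-values of 0.311 and 0.42.

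The members' loci were shorter at the median than those of all genes with as many counts. The span from first to last annotated base was known for 34 and had a median of 15.0 kb (quartiles 4.56 and 26.9), against 28.3 kb (11.9 and 69.1) for the 10848 genes with a position that passed the count minimum and 5.24 kb for the 10 set-aside genes. In members with whole counts the median was 16.0 kb. Of the 34, 14 (41.2%) spanned under 10 kb, against 21.2% of all genes, and 28 (82.4%) under 30 kb, against 52.0%. Among the 23 with whole counts, 8 spanned under 10 kb and 20 under 30 kb. The longest were Rfx4 at 150 kb (chr10:84756062-84906538, plus strand, GRCm38), Jmy at 69.7 kb and Slc38a6 at 67.3 kb, and the shortest were Gm37917, Gm29562 and Gm10052, all under 1 kb and all with shared reads.

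**Figure D4:**
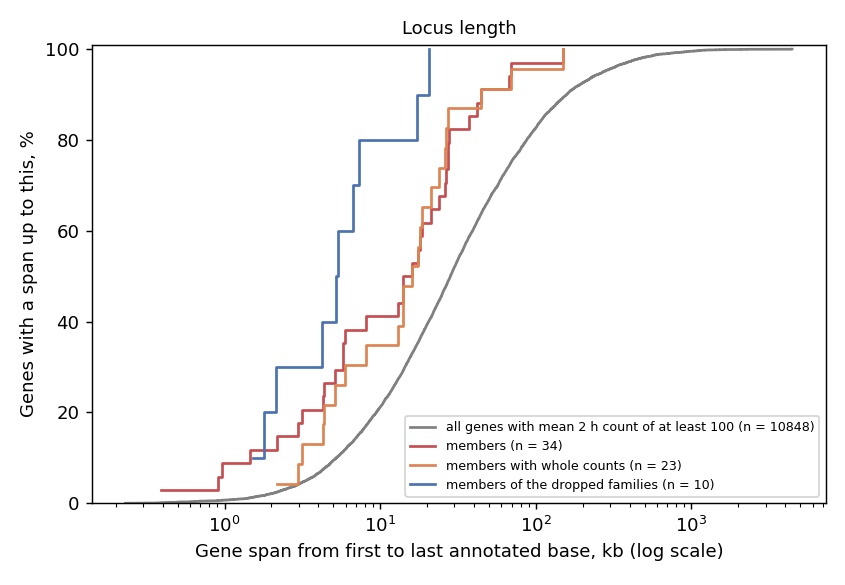
Share of genes (y axis, %) with a span up to the length on the x axis (kb, log scale), for the 34 members with a position, the 23 of them with whole counts, the 10 set-aside genes and all genes that passed the count minimum. The curve of the members lies between those of the set-aside genes and of all genes over most of the range.

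Exons were counted in the reference transcript of each gene, its best-ranked coding transcript or, without one, its longest. Members had a median of 5.5 exons, against 9 in all genes, and 5 (14.7%) had a single exon, against 2.97%. Of those 5, Frat2 alone is protein-coding, and the others, Gm10052, Gm29562, Gm37917 and Gm29084, share reads with other genes. Among protein-coding genes, the median was 6 exons in members and 10 in all that passed the count minimum. The members' exonic length, merged over all annotated transcripts of a gene, was 3.41 kb at the median against 4.94 kb. The median number of annotated transcripts was 2 in members and 5 in all genes. The GC content of the reference transcript was 48.9% in members against 49.9%, whereas the set-aside genes had 56.9%. The untranslated region after the coding sequence was annotated in 28 members, with a median of 0.983 kb against 1.21 kb. The pentamer ATTTA, common in unstable transcripts, occurred there 2.22 times per kb at the median, against 1.38 in all genes and 1.33 in the set-aside genes. The AU-rich nonamer TTATTTATT was present in 4 members (14.3%), Ccno, Ucp1, Noct and Tiparp, against 8.17% of all genes and 0 of the 10 set-aside genes.

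The spread between replicates was assessed as the log2 ratio of replicate 1 to replicate 2 of the normalised counts. Its absolute median over members was 0.161 at 0 h, 0.184 at 2 h, then 0.167 at 6 h, and over all genes that passed the count minimum it was 0.0811, 0.205 and 0.0802. At 2 h, 5 members (14.3%) differed by over 0.5, against 13.5% of all genes, and at 6 h 4 of 34 (11.8%) did, against 1.52%. Those 4 were Fam205a4 and ENSMUSG00000079774, with identical values, Lrrn4cl and Ucp1, at 18 to 69 counts per library at 6 h. The count minimum was set at 2 h, where the selection placed the members' highest level. How far lower counts widened the members' ratios at 0 h and 6 h was not tested. The largest ratios at 2 h were −1.74 in Gm10052, −0.64 in Fam205a4 and ENSMUSG00000079774, −0.54 in Vps37b and 0.51 in Ucp1. Replicate 1 was the higher in 13 members and the lower in 19 at 0 h, in 15 and 20 at 2 h, then in 25 and 9 at 6 h. The median signed ratio of the members was −0.037, −0.0601 and 0.0979, and that of all genes that passed the count minimum was 0.0163, −0.0492 and 0.00801. The share of all genes with replicate 1 the higher is not given, so these counts are a description.

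The 2 h replicates also differed along GC content over all genes. Once counts were corrected for this trend, the absolute median fell from 0.205 to 0.114 over all genes but stood at 0.208 over members. Over members with whole counts it stood at 0.174. With GC-corrected counts in place of TPM, a setting chosen after seeing the data, 38 genes met the rule and 29 of the 35 members were among them. The 6 lost were Npas4, Frat2, Gpr180, Irs2, Pygm and Sap30, each with a 6 h level between 50.7% and 61.4% of that at 2 h. Npas4 lay at 50.7%, and its rise was 193-fold on that scale.

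**Figure D5:**
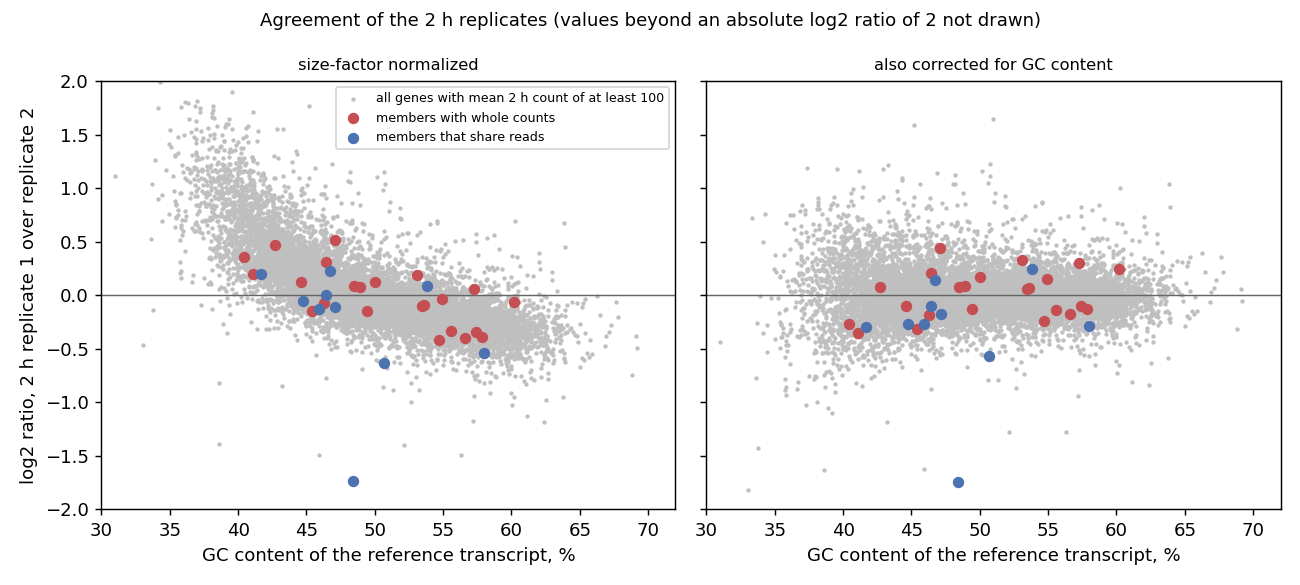
Log2 ratio of the 2 h replicates (y axis) against the GC content of the reference transcript in % (x axis), before (left) and after (right) correction for GC content. Grey points are all genes that passed the count minimum, red points members with whole counts and blue points members that share reads; the trend along GC in the left panel is absent from the right, and Gm10052 lies far below the other members in both.

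Applied to the libraries of each replicate number alone, the rule was met by 21 members in both, by 6 in replicate 1 alone and by 8 in replicate 2 alone. Npas4 fell to 52.1% of its 2 h level at 6 h in replicate 1 and to 38.1% in replicate 2. Irs2 (51.2% and 47.1%) and Dlx5 (52.8% and 38.7%) likewise missed the limit in replicate 1, and Jmy (45.1% and 53.7%), A3galt2 (37.4% and 56.1%) and Rfx4 (40.7% and 50.4%) in replicate 2. In a stricter reading, 18 members had a lowest 2 h library at least 2 times the highest 0 h and the highest 6 h library, among them Cwc25, Siah2, Tiparp, Gla, Spty2d1 and Jade2. The selection shaped this count, and the share over all genes is not given. In Cwc25 the lowest 2 h library was 6.91 times the highest 0 h library and 4.85 times the highest 6 h library, and in Jade2 these ratios were 3.29 and 5.01.

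The members were also read against lists of known pathways. Of 48 activity-regulated genes outside the set-aside families, 33 were called for a rise from 0 h to 2 h and 35 for 6 h over 0 h, while from 2 h to 6 h 4 rose and 2 fell. The 2 that fell were the 2 members on that list, Npas4 and Tiparp, a match largely fixed by the selection, which required such a fall. No other list held a member. Of 21 known later activity genes, 20 were tested: 12 rose from 0 h to 2 h, 7 rose between 2 h and 6 h and 0 fell. The share of all genes called for a rise from 2 h to 6 h is not given, so the 4 and the 7 are a description. Calls on the rise from 0 h to 2 h, made in 3.62% of all genes tested, were 3 of 24 among SRF and MRTF targets, 4 of 16 among NF-kB feedback genes, 3 of 16 among Notch, BMP and TGF-beta feedback genes, 3 of 18 among p53 targets and 3 of 31 among regulators of mRNA decay. Calls on the fall from 2 h to 6 h, made in 8.02% of all genes, were made on these lists for Hes5, a Notch target, and Rrm2b, a p53 target, and for no other gene. Neither had risen before: their log2 fold changes from 0 h to 2 h were −0.56 and −0.51.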

How the data were processed

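Poly(A) RNA was made, per the labels, into stranded paired-end libraries, and the authors trimmed the reads and mapped them to mm10. RSEM 1.3.0 and Bowtie2 2.2.9 are named in the submitters' processing notes. The expected counts deposited by the authors are RSEM estimates without normalization, which divide reads shared between genes. The deposited TPM values sum to an equal total per library, and the deposited effective lengths are in bases. The deposited FPKM column was not used.

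Groups were read from the sample titles. Rounded expected counts of the 22515 genes that had any count were fitted with DESeq2 1.42.0 (R 4.3.3), the tool named in the methods of the study, in 1 fit of the 6 libraries, where group was the sole term. As in those methods, calls needed an adjusted p (Benjamini-Hochberg over all genes tested) of at most 0.05 and a fold above 2. Normalised counts used DESeq2's size factors. Effective lengths were tested with limma 3.58.1 over genes averaging 100 counts or more, called at an absolute log2 ratio of at least 0.2. All tests were two-sided, and edgeR 4.0.16 was an alternative. The fits were tested on simulated data.

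Gene structure, transcripts and coordinates (1-based, GRCm38) were from GENCODE M21, which may not be the release the authors used, and gave a position for 42548 of 43432 genes. Shared sequence was found with blastn 2.17.0 (at least 200 bases and 95% identity). Motifs were sought on both strands. The MEF2 box, CArG box, NF-kB and EGR motifs were also sought and had no match in a member's promoter. Intervals are exact binomial ones for the share of counts. GC correction was a loess fit per library.

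The members, the 13 gene lists and the tests were chosen with earlier results of these data known. Named were up to 6 members of the transcription class and up to 4 of each other class by 2 h TPM, members on the activity list, extremes of each ratio, of replicate difference and of locus length, genes nearest each limit, and called members by size. Roles were assigned by hand. The class of 5 genes with a shared sequence was formed after the sequences were compared. A transcript sequence is not reported here.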

Additional observations from a re-analysis of the deposited data

How the results depend on the processing

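Loosening or tightening the rule moved the number of members most: 111 genes met it with folds of 1.5 in place of 2, 9 with folds of 3, 62 with a count minimum of 50, and 21 when it had to hold in both replicate numbers. Under the other settings tried (a minimum of 200, normalised, TMM-scaled or GC-corrected counts in place of TPM, a single replicate number, no genes that share reads) it lay between 24 and 45, and leaving out 1 library gave 35 to 41. Tested against a fold of 2, rather than 0 with a fold filter, 9 members were called on the fall from 2 h to 6 h and 5 on 6 h over 0 h, in place of 31 and 14. Leaving out 1 library gave 30 to 33 calls at 2 h against 0 h, 26 to 31 at 6 h against 2 h, 12 to 15 higher and 0 lower at 6 h against 0 h, and 0 by effective length. No called member changed sign in any alternative at 6 h against 0 h. Shares over all genes are given for the main calls alone, so the counts of calls in this section only describe the members.

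Scaling by library totals moved the median log2 fold change of all genes at 6 h against 0 h to −0.25 and that of the members to 0.44, so the members stood 0.68 above the median of all genes, as in the main fit. Under it 29 members were above 0 and 6 below, against 32 and 3, and Gm15728, Slc38a6, Noct and Spty2d1 lost their calls (0.81 to 0.98), leaving 10.

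The sources used here do not say whether same-numbered libraries share more than a number. The correlations of their deviations were 0.281, −0.00187 and 0.153 for the 3 pairs of times over 12291 genes. With a replicate block, 34 members were called at 2 h against 0 h, 31 at 6 h against 2 h, 16 higher and 0 lower at 6 h against 0 h, and 0 by effective length in each comparison. The 2 added at 6 h against 0 h were Fam205a4 and ENSMUSG00000079774 (2.05), also called without replicate 2 at 0 h (8.11), where the remaining 0 h library had 0 counts and the value is no estimate of size. With GC correction and the replicate block the counts were 34, 28 and 16.

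Ucp1 and Ccno rest on 2 to 4 counts per library at 0 h, and precision from counts covers counting error only.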
